A study of Mus musculus with 8 samples.

Results

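Amino acid catabolism enzymes take the nitrogen off amino acids and pass their carbon skeletons to the citrate cycle, to ketone bodies or to other products. The 38 genes described here were listed by name for 7 routes. These are the routes of lysine, the branched-chain amino acids, tyrosine, proline, arginine, glycine with threonine and serine, and tryptophan. The list names pathway genes and was not made from a threshold on values. It was chosen with earlier results of these data known, which limits comparisons of its counts with those of all genes. Of the 38, 33 were measured among the 12393 genes of the array, each by the probe set that carries its symbol alone and has the highest mean over all arrays. Ass1 and Gcat were named only by probe sets shared with other genes, and Amt, Tdh and Sds by no probe set used. The expression of these 5 was therefore not analysed here. The listed gene Mut appears in the annotation under its newer symbol Mmut.

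The tissue was ventral prostate from FVB mice at 20 weeks of age, with 1 Affymetrix array for each sample. The 4 transgenic samples came from mice that overexpress p110 beta, the PI3-kinase catalytic subunit, in an active form, and their labels describe mouse prostatic intraepithelial neoplasia (mPIN). The 4 wild type samples are labelled as normal prostate. The labels do not name the promoter that drives the transgene, the number of founder lines or whether a sample pooled animals, and where no label says that arrays came from separate animals, p-values measure only the spread between these samples.

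Most of these enzymes work in mitochondria. The branched-chain amino acids leucine, isoleucine and valine lose their amino group to a transaminase and are then committed to breakdown by the branched-chain keto acid dehydrogenase, a complex that its own kinase switches off by phosphorylation. Lysine enters breakdown through the saccharopine enzyme, proline through proline dehydrogenase at the inner mitochondrial membrane, and glycine through the glycine cleavage system. The liver carries much of this breakdown in the body, while the prostate is known for secreting citrate and, in several species, polyamines that are made from ornithine.

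The members were mainly lower in transgenic prostates. In the limma fit over all probe sets, 15 of the 33 fell, 1 rose and 17 did not pass an adjusted p of 0.05, while 4.98% of all genes fell and 5.99% rose. The median difference of the members, transgenic minus wild type, was -0.42 on the log2 scale, against -0.04 over all genes. Negative differences numbered 28 of 33, against 7235 of 12393 over all genes. Of the 33 members, 15 had no overlap between the groups in the lower direction, against 8.20% of all genes. These were the same 15 that fell, and both measures rest on the same values, so the second is not separate support. The falls ran from 1.34-fold to 4.32-fold (wild type over transgenic), and 2 of them, those of Aass and Prodh, were over 2-fold.

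**Figure D1:**
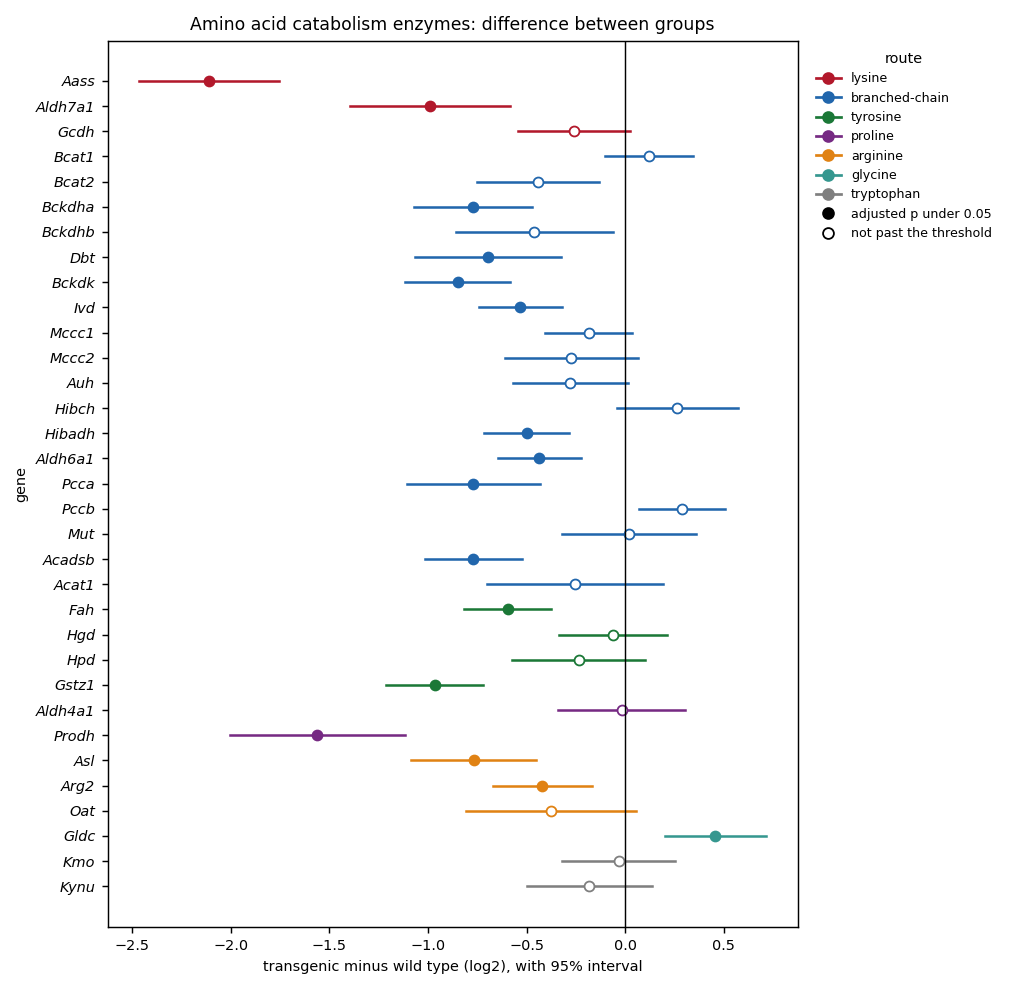
Difference between transgenic and wild type samples (x axis, log2, transgenic minus wild type) for each of 33 enzymes of amino acid breakdown, coloured by route. Points are limma estimates, lines are 95% intervals and filled points have an adjusted p under 0.05. Of the filled points, 15 lie below 0 and Gldc alone lies above it.

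The promoters of 29 members are in the RefSeq table of GRCm38.p6, as windows of 300 bases from 250 before to 50 after the annotated start. Shown are Aass and Prodh, which had the largest falls, Ivd, a member that fell and holds several CCAAT boxes, and Gldc, the member that rose. Capitals mark the CCAAT box (CCAAT, or ATTGG on the other strand) and the GC box (GGGCGG, or CCGCCC on the other strand).
Aass (chr6:23132937-23133236, minus strand): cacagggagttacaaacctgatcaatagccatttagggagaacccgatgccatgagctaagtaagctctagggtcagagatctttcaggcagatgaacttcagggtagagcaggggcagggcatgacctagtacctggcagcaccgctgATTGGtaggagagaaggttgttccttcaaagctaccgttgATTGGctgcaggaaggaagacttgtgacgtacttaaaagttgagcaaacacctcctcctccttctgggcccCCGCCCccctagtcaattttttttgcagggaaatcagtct
Prodh (chr16:18089141-18089440, minus strand): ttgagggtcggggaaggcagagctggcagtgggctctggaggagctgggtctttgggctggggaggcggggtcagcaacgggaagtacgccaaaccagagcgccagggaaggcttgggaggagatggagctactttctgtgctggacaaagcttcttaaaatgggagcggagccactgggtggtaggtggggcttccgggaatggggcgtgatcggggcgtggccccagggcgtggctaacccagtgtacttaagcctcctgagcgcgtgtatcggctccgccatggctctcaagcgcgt
Ivd (chr2:118861744-118862043, plus strand): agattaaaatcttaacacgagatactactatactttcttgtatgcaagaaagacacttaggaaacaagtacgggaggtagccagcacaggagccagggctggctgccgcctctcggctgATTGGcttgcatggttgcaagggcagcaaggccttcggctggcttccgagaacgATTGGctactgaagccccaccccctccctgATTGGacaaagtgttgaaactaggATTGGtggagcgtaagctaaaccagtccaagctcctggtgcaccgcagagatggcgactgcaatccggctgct
Gldc (chr19:30175392-30175691, minus strand): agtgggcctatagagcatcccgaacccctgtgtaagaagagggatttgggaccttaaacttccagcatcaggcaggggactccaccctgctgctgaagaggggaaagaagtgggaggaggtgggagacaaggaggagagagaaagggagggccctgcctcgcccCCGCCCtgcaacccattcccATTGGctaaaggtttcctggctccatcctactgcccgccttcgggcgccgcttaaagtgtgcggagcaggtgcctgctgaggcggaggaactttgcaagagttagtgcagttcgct
The Aass window holds 2 CCAAT boxes and 1 GC box, the Ivd window 4 CCAAT boxes, the Gldc window 1 of each, and the Prodh window neither. Over the 14 windows of the 11 members that fell and have one in the table, 10 held a CCAAT box (71.43%) and 7 a GC box (50%). Over the 35 windows of all 29 members in the table, these shares were 60% and 51.43%. These windows include those of the members that fell and of Ass1, Gcat and Amt, whose expression was not measured. Over all 32851 windows of the table they were 37.41% and 35.66%. Some genes have 2 windows, so windows are not independent. The median GC content was 55.17% in the windows of members that fell, 55.67% in those of all members and 52.67% in all windows, with a median of 13, 12 and 7 CpG dinucleotides. Whether members that fell differ in these measures from other members was not tested. Both strands were also searched for the FOXO element GTAAACA, found in 1 of the 14 windows (7.14%, against 3.65% of all), and for the steroid receptor element AGAACA, found in 2 (14.29%, against 18.97%). A TATA box (TATAAA) was in 1 of the 14 (7.14%, against 13.62%) and the E-box CACGTG in 0 of the 14 (against 7.15%). These letter matches describe the windows only, and the motifs do not overlap in the windows shown.

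The lysine route held the largest fall of any member. Aass encodes the bifunctional enzyme that joins lysine to 2-oxoglutarate and splits the saccharopine formed. Its log2 values were 5.45, 5.25, 5.02 and 5.0 in transgenic arrays 1 to 4, against 7.76, 7.12, 7.13 and 7.16 in wild type arrays 1 to 4. Every transgenic array lay far below every wild type array, by more than the spread within either group. Aass averaged 5.18 ± 0.21 in transgenic and 7.29 ± 0.32 in wild type samples (SD, n = 4 each), a difference of -2.11 ± 0.16 (SE), or 4.32-fold higher in wild type (limma adjusted p = 1.08e-05). The transgenic mean was under every array median, a range in which background adds to the signal, so the size of this fall is approximate.

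Aldh7a1 encodes the dehydrogenase that oxidises the semialdehyde formed later on the lysine route. Its values were 7.45, 7.97, 8.17 and 7.72 in transgenic arrays, against 9.17, 8.97, 8.69 and 8.41 in wild type arrays. The groups did not overlap, although transgenic array 3 and wild type array 4 were close. The difference was -0.99 ± 0.19 (SE; limma adjusted p = 0.00569). The 2 other Aldh7a1 probe sets had means below every array median in both groups and did not pass (-0.09 and -0.34). Gcdh, encoding glutaryl-CoA dehydrogenase, where lysine and tryptophan breakdown meet, had a difference of -0.26 (95% interval -0.54 to 0.03) and did not pass, with both group means below every array median.

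**Figure D2:**
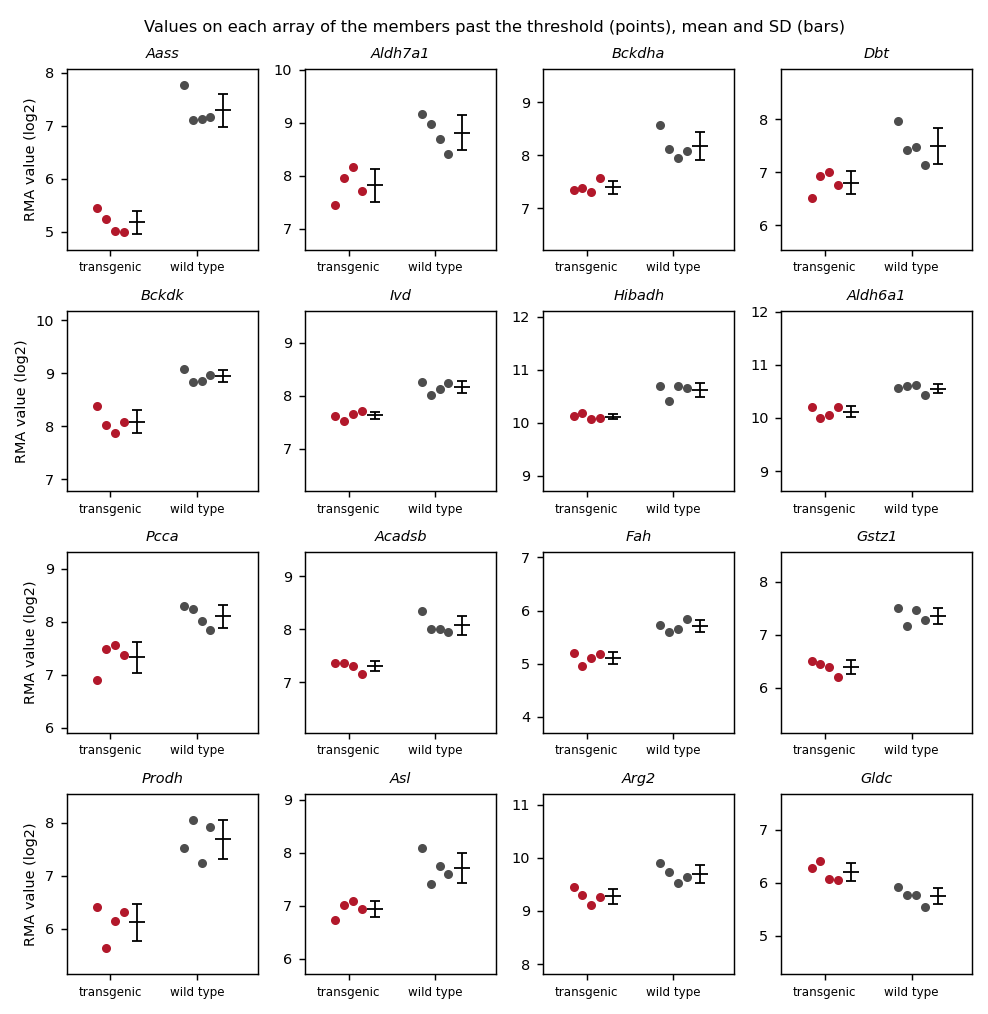
RMA values (y axis, log2) of the 16 members past the threshold on each transgenic array (red) and each wild type array (grey), arrays 1 to 4 from left to right, with mean and SD (n = 4) beside the points. Every panel spans the same log2 range, and the groups do not overlap in any of the 16.

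Of the 18 branched-chain genes, 8 fell, none rose and 10 missed the threshold in limma, and the median difference was -0.44. Among the 10 not past the adjusted threshold, Bcat2, Bckdhb and Pccb had an unadjusted p under 0.05. The genes that fell lay at the committed step and at points of each of the 3 branches beyond it. The transaminases open the route. Bcat2, encoding the mitochondrial transaminase, had values of 6.09, 6.34, 6.55 and 6.10 in transgenic and 7.0, 6.75, 6.63 and 6.46 in wild type arrays. Transgenic array 3 lay above wild type array 4, and the difference of -0.44 ± 0.14 (SE) did not pass (adjusted p = 0.0771). Without wild type array 4 Bcat2 passed, with an adjusted p of 0.0430 in limma. Bcat1, encoding the cytosolic transaminase, was near background in both groups, with means of 3.61 in transgenic and 3.49 in wild type samples.

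Of the 3 listed subunits of the dehydrogenase complex, 2 fell. Bckdha, encoding the E1 alpha subunit that the kinase phosphorylates, had values of 7.34, 7.39, 7.30 and 7.58 in transgenic arrays, against 8.56, 8.11, 7.94 and 8.08 in wild type arrays. The groups did not overlap, and the difference was -0.77 ± 0.14 (SE; limma adjusted p = 0.00376). Dbt, encoding the E2 transacylase core, was at 6.52, 6.93, 7.01 and 6.76 in transgenic and 7.96, 7.42, 7.48 and 7.14 in wild type arrays. Dbt fell by 0.70 (limma adjusted p = 0.0228), with wild type array 1 well above the other wild type arrays. That call was lost without transgenic array 1 or 4 or wild type array 3 (limma adjusted p up to 0.0683). Bckdhb, encoding the E1 beta subunit, had a difference of -0.46 (95% interval -0.86 to -0.06), overlapping groups and an adjusted p of 0.160. Dld, encoding the E3 subunit and not among the listed members, differed by 0.05 (95% interval -0.71 to 0.81) and did not pass.

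Bckdk, encoding the kinase that inactivates this complex, fell as well. Its values were 8.39, 8.03, 7.87 and 8.08 in transgenic arrays, against 9.09, 8.84, 8.86 and 8.97 in wild type arrays. The gap between the groups exceeded the range of the wild type arrays but not that of the transgenic arrays. Bckdk averaged 8.09 ± 0.22 in transgenic and 8.94 ± 0.11 in wild type samples (SD, n = 4 each), a difference of -0.85 ± 0.12 (SE; limma adjusted p = 0.000937). Thus the transcripts of 2 of the 3 complex subunits listed and of the complex's inhibitor were each lower. The phosphorylation of the complex was not measured.

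On the leucine branch, 1 of 4 genes fell. Ivd encodes isovaleryl-CoA dehydrogenase, the first enzyme of leucine breakdown beyond the shared complex. Its values were 7.63, 7.53, 7.66 and 7.71 in transgenic arrays, against 8.26, 8.02, 8.13 and 8.24 in wild type arrays. Both groups were tight, and the difference was -0.53 ± 0.10 (SE; limma adjusted p = 0.00455). A second Ivd probe set, at -0.49, passed too (limma adjusted p = 0.0427). Mccc1 and Mccc2, encoding the subunits of methylcrotonyl-CoA carboxylase, and Auh, encoding the hydratase that follows, had differences from -0.28 to -0.19 and did not pass. Mccc2 was below every array median in both groups.

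Acadsb, which acts on the isoleucine branch as a short branched-chain acyl-CoA dehydrogenase, fell. It was at 7.38, 7.37, 7.32 and 7.16 in transgenic arrays, against 8.35, 8.0, 8.01 and 7.95 in wild type arrays. All transgenic arrays lay below all wild type arrays, and the difference was -0.77 ± 0.11 (SE; limma adjusted p = 0.00105). Its only probe set is marked as shared between transcripts. Acat1, encoding the mitochondrial thiolase that ends isoleucine breakdown, varied widely in wild type, with 8.76 on array 1 and 7.84 on arrays 3 and 4. The Acat1 difference of -0.25 (95% interval -0.70 to 0.19) did not pass.

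On the valine branch, 2 of 3 genes fell. Hibadh, encoding 3-hydroxyisobutyrate dehydrogenase, had values of 10.13, 10.18, 10.06 and 10.08 in transgenic arrays, against 10.70, 10.41, 10.69 and 10.66 in wild type arrays. Its groups were separate, with wild type array 2 the nearest to the transgenic arrays. The difference was -0.50 ± 0.10 (SE; limma adjusted p = 0.00752), and a second probe set gave -0.47 (limma adjusted p = 0.0444). Aldh6a1, encoding methylmalonate semialdehyde dehydrogenase, was at 10.21, 10.01, 10.05 and 10.21 in transgenic and 10.57, 10.60, 10.61 and 10.43 in wild type arrays. Aldh6a1 fell by 0.43 (limma adjusted p = 0.0143), with no overlap between the groups. Its call was lost without transgenic array 2 or 3 or wild type array 3 (limma adjusted p up to 0.0586). Hibch, encoding the hydrolase upstream of Hibadh, had a difference of 0.26 and did not pass (95% interval -0.04 to 0.57).

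Valine and isoleucine carbon leaves as propionyl-CoA, whose enzymes did not move as a block. Pcca, encoding the biotin-carrying alpha subunit of propionyl-CoA carboxylase, had values of 6.91, 7.48, 7.57 and 7.38 in transgenic arrays, against 8.31, 8.24, 8.01 and 7.85 in wild type arrays. Pcca fell by 0.77 (SE 0.15, limma adjusted p = 0.00847), and no transgenic array reached the wild type range. Pccb, encoding the beta subunit of the same carboxylase, was at 8.05, 8.26, 8.29 and 8.06 in transgenic and 7.96, 7.93, 7.86 and 7.77 in wild type arrays. All transgenic arrays were above all wild type arrays for Pccb, but the difference of 0.29 ± 0.10 (SE) did not pass (adjusted p = 0.106). With array weights it passed (limma adjusted p = 0.0348). Mut, encoding methylmalonyl-CoA mutase, differed by 0.02 (95% interval -0.32 to 0.36). A second Mut probe set was at -0.28 (95% interval -0.49 to -0.08), with all transgenic arrays below all wild type arrays. It did not pass either (limma adjusted p = 0.0918). Whether the differences of Pcca and Pccb differ from each other was not tested.

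Proline dehydrogenase gave the second largest fall. Prodh encodes the enzyme that oxidises proline to pyrroline-5-carboxylate and is known as a p53-induced gene in human cells. Its values were 6.41, 5.63, 6.14 and 6.31 in transgenic arrays, against 7.53, 8.05, 7.24 and 7.92 in wild type arrays. The highest transgenic array lay well below the lowest wild type array. Prodh averaged 6.12 ± 0.35 in transgenic and 7.68 ± 0.37 in wild type samples (SD, n = 4 each), 2.95-fold higher in wild type (log2 difference -1.56 ± 0.20 SE, limma adjusted p = 0.000484). Aldh4a1, encoding the dehydrogenase that turns pyrroline-5-carboxylate into glutamate, differed by -0.02 (95% interval -0.34 to 0.30), with 5.90 in transgenic and 5.92 in wild type samples.

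Of 4 tyrosine genes, 2 fell, both late on the route. Gstz1 encodes maleylacetoacetate isomerase, the last but one step. It was at 6.50, 6.45, 6.40 and 6.19 in transgenic arrays, against 7.50, 7.16, 7.47 and 7.28 in wild type arrays. The groups were separated by more than the range of either, and the difference was -0.97 ± 0.11 (SE; limma adjusted p = 0.000225). Fah, encoding fumarylacetoacetate hydrolase, the last step, had values of 5.19, 4.95, 5.11 and 5.17 in transgenic arrays, against 5.72, 5.59, 5.65 and 5.85 in wild type arrays. Fah fell by 0.60 (limma adjusted p = 0.00289), and since its transgenic mean lay below every array median the size is approximate. The earlier enzymes Hpd and Hgd were below every array median in both groups, with means from 3.92 to 4.44 in transgenic and from 4.16 to 4.50 in wild type samples. Changes of such genes can be missed.

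On the arginine route, 2 of the 3 measured genes fell. Asl encodes argininosuccinate lyase, which releases arginine in the urea cycle and in arginine synthesis. Its values were 6.73, 7.01, 7.08 and 6.94 in transgenic arrays, against 8.09, 7.42, 7.74 and 7.59 in wild type arrays. The groups did not overlap, and the difference was -0.77 ± 0.14 (SE; limma adjusted p = 0.00569). Arg2, encoding the mitochondrial arginase that yields ornithine, was at 9.45, 9.29, 9.11 and 9.26 in transgenic and 9.91, 9.73, 9.52 and 9.64 in wild type arrays. Arg2 fell by 0.42 (limma adjusted p = 0.0391), with transgenic array 1 just below wild type array 3. The call was lost without any one of 6 arrays, all but transgenic array 1 and wild type array 3 (limma adjusted p up to 0.125), and a second Arg2 probe set at -0.42 had an adjusted p of 0.0502. Oat, encoding ornithine aminotransferase, overlapped between groups, with values of 8.66, 9.39, 9.41 and 9.11 in transgenic and 9.63, 9.91, 9.44 and 9.10 in wild type arrays (difference -0.38, 95% interval -0.81 to 0.05).

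Gldc was the member that rose. It encodes the glycine decarboxylase subunit of the glycine cleavage system and was the only measured gene of the 5 listed for glycine, threonine and serine. Its values were 6.27, 6.41, 6.08 and 6.04 in transgenic arrays, against 5.91, 5.76, 5.76 and 5.54 in wild type arrays. The lowest transgenic array was just above the highest wild type array. The difference was 0.46 ± 0.12 (SE; 1.37-fold, limma adjusted p = 0.0307), and the call was lost without transgenic array 1 or 2 or wild type array 2, 3 or 4 (limma adjusted p up to 0.106). The tryptophan enzymes Kmo and Kynu, of the kynurenine pathway that macrophages also use, were below every array median in both groups. Kynu was at 4.01, 3.82, 3.57 and 3.75 in transgenic and 3.73, 3.77, 4.31 and 4.06 in wild type arrays, with overlapping groups and a difference of -0.18 (adjusted p = 0.558). Kmo differed by -0.03.

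**Figure D3:**
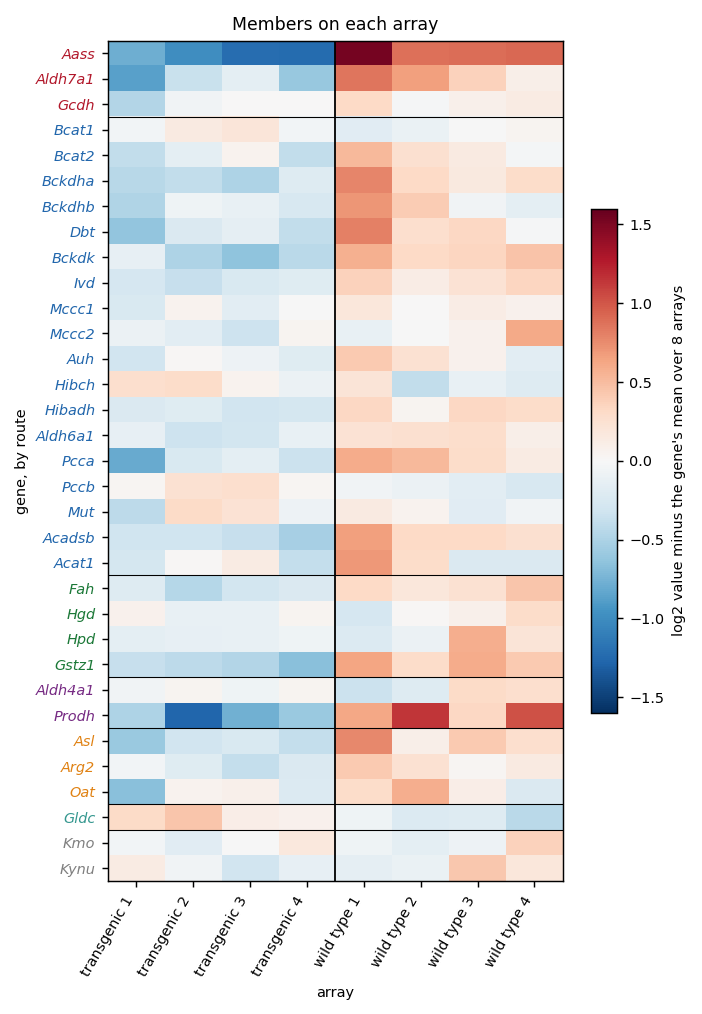
Heat map of 33 members (rows, coloured and separated by route) on 8 arrays (columns, transgenic left of the line). Colour is the log2 value minus the gene's mean over the 8 arrays. Blue on the left and red on the right mark lower values in transgenic samples, as for Aass and Prodh, and wild type array 1 is the highest wild type array for 22 of the 33 rows.

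Arrays of a group were not equally high. Averaged over the 33 members, the log2 value was 6.76 ± 0.05 in transgenic and 7.20 ± 0.08 in wild type samples (SD over arrays, n = 4 each). Wild type array 1 was the highest wild type array for 22 of the 33 members, and its mean deviation from the wild type means was 0.13. Among transgenic arrays, array 1 was the lowest for 13 members, with a mean deviation of -0.06. The median SD of a member was 0.15 in transgenic and 0.23 in wild type samples. Leaving out wild type array 1 left 15 of the 16 calls in place, with Arg2 lost.

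Other genes of the same routes, listed by pathway, gave fewer calls. This list was made with earlier results of these data known. Of 68 such genes 54 were measured, and of these 3 rose, 4 fell and 47 missed the threshold (median difference -0.08). Over all genes 5.99% rose and 4.98% fell, so these counts lie near the shares over all genes. Of 4 measured genes beside Prodh and Aldh4a1 on the proline route, 2 fell. Slc6a20a, encoding a transporter of proline and other imino acids, was at 5.07, 5.07, 4.45 and 4.85 in transgenic arrays, against 6.12, 6.18, 5.96 and 6.35 in wild type arrays. That is a difference of -1.29 ± 0.15 (SE; limma adjusted p = 0.000196), with no overlap. The transgenic mean of Slc6a20a, 4.86, lay below every array median, so the size of its fall is approximate. Aldh18a1, encoding the synthase that makes pyrroline-5-carboxylate from glutamate, fell by 0.85 (limma adjusted p = 0.00590). A gene of proline import, a gene of proline synthesis and Prodh for proline oxidation were thus lower in transgenic samples. The other measured genes of the proline route did not pass, with differences of -0.02 for Aldh4a1, -0.05 for Pycr3 and 0.05 for Prodh2. Both group means of Prodh2 lay below every array median.

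On the branched-chain route, Mcee, encoding the epimerase between propionyl-CoA carboxylase and Mut, fell by 0.73 (limma adjusted p = 0.0164). It missed the threshold without transgenic array 4 (limma adjusted p = 0.0598). Oxct1, encoding the transferase that activates ketone bodies for use, rose, with 10.05, 10.67, 10.67 and 10.52 in transgenic arrays, against 9.84, 9.80, 9.55 and 9.36 in wild type arrays (difference 0.84 ± 0.16 SE, limma adjusted p = 0.00573). Kyat3, encoding a kynurenine aminotransferase, fell by 0.64 (limma adjusted p = 0.00586). Its transgenic mean, 5.14, lay below every array median, so that size is approximate. Got1, encoding cytosolic aspartate aminotransferase, rose by 0.47 (limma adjusted p = 0.0375), and missed the threshold when any of 6 arrays was left out, all but wild type arrays 1 and 3 (limma adjusted p up to 0.113). Crym, encoding a ketimine reductase of lysine breakdown in brain that also binds thyroid hormone, rose by 0.82 (limma adjusted p = 0.00721). Both group means of Crym, 4.80 in transgenic and 3.98 in wild type samples, lay below every array median, so the size of its rise is approximate. In limma no gene passed among 10 of arginine, 6 of glycine and 4 of tyrosine metabolism, where 1, 1 and 0 had an unadjusted p under 0.05.

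Markers of cell types differed between the same samples. In bulk tissue, fewer cells of a type and less RNA per cell cannot be told apart. Of 8 measured luminal epithelial markers 5 rose, and the log2 of their summed values ran from 14.08 to 14.14 in transgenic and from 13.45 to 13.60 in wild type arrays. Of 10 basal markers 5 fell (log2 sums 9.84 to 10.21 in transgenic and 10.52 to 10.65 in wild type arrays). Of 10 smooth muscle markers 2 fell (12.37 to 12.77 in transgenic and 12.78 to 13.61 in wild type arrays), and of 10 fibroblast markers 2 fell (10.75 to 10.90 in transgenic and 11.29 to 12.30 in wild type arrays). Of 10 macrophage markers 1 rose, Mrc1, with log2 sums of 10.01 to 10.23 in transgenic and 9.23 to 10.35 in wild type arrays. Their part in the differences above was not tested.

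Summed adipocyte markers varied widely within both groups, and their part in the differences above was not tested. None of 8 passed in limma (0 at an unadjusted p under 0.05), 4 were below every array median in both groups, and the log2 sums ran from 7.91 to 10.04 in transgenic and from 8.21 to 9.42 in wild type arrays. No skeletal muscle marker of 10 passed in limma (1 at an unadjusted p under 0.05, log2 sums 8.49 to 8.76 in transgenic and 8.78 to 9.30 in wild type arrays), with 7 of them below every array median. All 6 seminal vesicle markers measured were below every array median. A sign of RNA quality, the signal of the 3 prime over the 5 prime control probe sets of beta actin and Gapdh (log2 difference, mean of both genes), was 1.12 ± 0.19 in transgenic and 1.47 ± 0.09 in wild type samples (SD, n = 4 each), and its part in the results was not tested. No probe set named Pik3cb, the gene of p110 beta, so the transgene itself was not checked here.

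**Figure D4:**
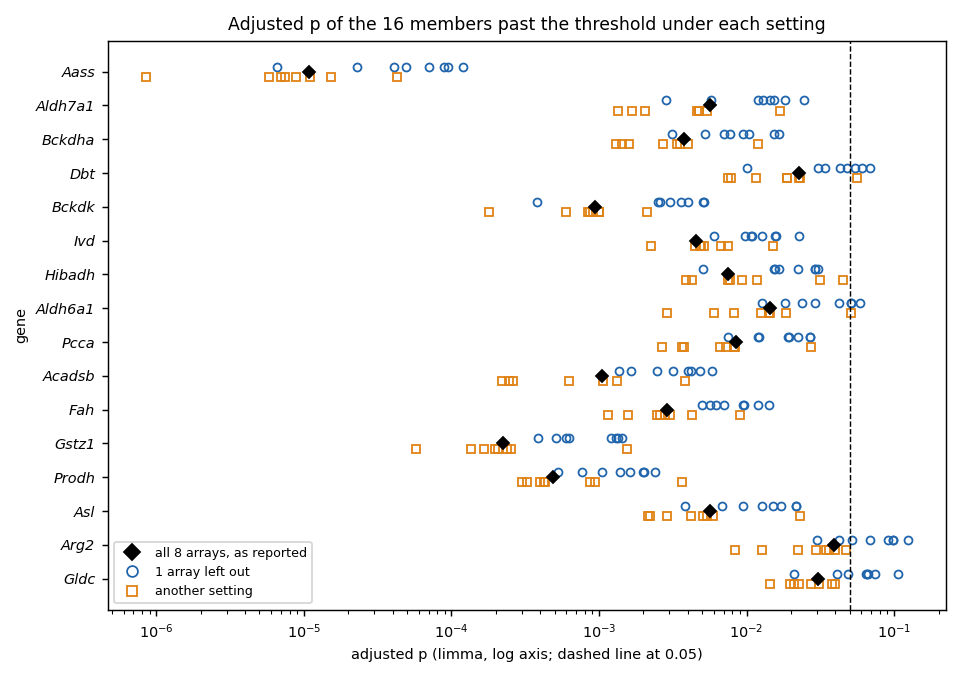
Adjusted p from limma (x axis, log scale) of the 16 members past the threshold with all 8 arrays (diamonds), with 1 array left out (circles) and under the other settings (squares), with a dashed line at 0.05. For 12 of the 16 every symbol is left of the line, and Dbt, Aldh6a1, Arg2 and Gldc have symbols on both sides.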

How the data were processed

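Biotin-labelled total RNA of 8 ventral prostate samples was put on Affymetrix mouse arrays, per the labels' protocols. The authors deposited log2 values, which the submitters' processing notes credit to RMA (version not given in the sources used here). The method subtracts background, normalizes by quantiles and summarises each probe set, so a change common to all transcripts would be removed. Array medians lay between 5.40 and 5.51. The number of arrays limits the precision.

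Of 22690 probe sets, 64 controls were left out. The platform annotation, with symbols updated through the RefSeq table of GRCm38.p6, gave 20380 probe sets with 1 symbol, 691 with several and 1555 with none, and 12393 genes. The other 22626 went into 1 fit of transgenic minus wild type with limma 3.58.1 and R 4.3.3 (functions lmFit and eBayes, Benjamini-Hochberg adjustment over all of them, threshold 0.05). The fit was tested on simulated data. Group means and SDs are of log2 values.

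The members, gene lists and tests were chosen with earlier results of these data known. Text gives array values for each member past the threshold and, where a route had none, for the member with the smallest p, while a few others were chosen after their values were seen. Other genes of the same routes named are those past the threshold and Dld, Pycr3 and Prodh2.

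Alternatives were quantile and cyclic loess normalization, removal of the dimmest 40% of probe sets, array weights, a robust prior with a mean-variance trend, averaging a gene's probe sets, leaving out probe sets marked as shared, the replicate number as a block, an adjusted p of 0.01, a change of over 1.5-fold and leaving out each array.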

Additional observations from a re-analysis of the deposited data

Results flagged for a closer look

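Examined were 80 groups of 4 values, those of the 33 members and the 7 other genes past the threshold, in transgenic and wild type arrays. Of these groups 5 held a value far from the other 3, where chance gives about 1 in 20. Aass was at 7.76 on wild type array 1, against 7.16 on the nearest other wild type array. Acadsb was at 8.35 on the same array, against 8.01 on the nearest. Hibadh was at 10.41 on wild type array 2, below the other wild type arrays, of which the nearest was at 10.66. Kmo, near background, was at 4.25 on wild type array 4, against 3.81 on the nearest, and Gcdh, near background too, was at 3.84 on transgenic array 1, against 4.26 on the nearest. The differences of Aass, Acadsb and Hibadh passed the threshold in limma without each of these arrays, and their causes were not tested.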

How the results depend on the processing

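The count of members that fell, 15, ranged from 13 to 15 with 1 array left out and was 13 with the replicate block, 12 at an adjusted p of 0.01 and 11 for changes over 1.5-fold. At the threshold of 0.05, 12 of the 16 calls held under every normalization, filter, probe set and variance setting and without each array, with 0 of 255 values of the 16 reversed (Acadsb has no value without shared probe sets). The exceptions were Dbt, Aldh6a1, Arg2 and Gldc. The count of members that rose, 1, was 2 with array weights, which add Pccb, 0 at an adjusted p of 0.01 and for changes over 1.5-fold, and 0 to 1 with 1 array left out. Other amino acid genes gave 2 to 4 higher and 3 to 6 lower with 1 array left out. Same-numbered arrays did not all deviate together (correlations of deviations from the group means from -0.31 to 0.33, with 1 of 4 transgenic arrays closest to its own number). Whether they were handled together cannot be told from so few arrays. With the replicate block 14 members kept their call and Dbt and Aldh6a1 lost it.

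Over all genes, 742 rose and 617 fell. These counts were 408 and 259 at an adjusted p of 0.01, 492 and 319 for changes over 1.5-fold, and 494 to 821 and 359 to 693 with 1 array left out. With array weights 1068 fell. The lowest counts with 1 array left out came without transgenic array 2, and the genes that fell also numbered 378 without transgenic array 3, 379 without transgenic array 4 and 397 without wild type array 3. The causes were not tested.

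Members near 0 changed sign without passing. Hibch was at -0.056 without shared probe sets, where a dim probe set stands in for it. Mut was at -0.087 under quantile and -0.027 under cyclic loess normalization, -0.13 as a mean of probe sets and -0.080 to 0.16 with 1 array left out. Aldh4a1 was at 0.015 under cyclic loess and -0.13 to 0.082 with 1 array left out, and Hgd at -0.16 to 0.024. Kmo was at 0.0056 under quantile and 0.0082 under cyclic loess normalization, at 0.010 with array weights and at -0.093 to 0.086 with 1 array left out. Dim members limit what can be detected: 7 of the 33 were below every array median in both groups.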
